A study of Mus musculus with 15 samples.

Results

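Genes that release and recycle synaptic vesicles were followed in bulk RNA sequencing of mouse cortex. They are 47 genes chosen by symbol, of 56748 gene identifiers in the table of raw counts. All 47 were matched, and all 47 passed the filter on low counts that kept 22998 genes for testing. The animals were wild-type C57BL/6J mice given a single session of repetitive transcranial magnetic stimulation, and cortical RNA was taken 3 hours afterwards. The pulses came in theta-burst patterns, intermittent (iTBS) in 5 mice and continuous (cTBS) in another 5, while a further 5 had a sham session. No group carried a transgene or a deletion, and the labels state neither age nor sex. Since titles say somatosensory and the design text says sensorimotor, the tissue is called cortex.

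A nerve terminal fills vesicles with transmitter, docks and primes them at the active zone, and fuses them with the plasma membrane when calcium enters. Synaptobrevin on the vesicle and syntaxin and SNAP-25 on the plasma membrane form the SNARE complex that drives fusion, while Munc13, RIM and the large scaffolds prepare the site and synaptotagmins sense the calcium. The emptied membrane is then taken back by dynamin and its partners and refilled. In cortex these messages come mostly from neurons, and excitatory terminals carry the vesicular glutamate transporter Slc17a7.

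Libraries held 15385070 to 47807723 counts, and 32299 to 35449 genes were detected in each. Mean depth was higher in cTBS, at 40198200 counts, than in iTBS, at 29745100, and in sham libraries, at 29887800. Levels are given in CPM, counts scaled to library size with TMM factors. Markers of cortical excitatory neurons were present in every library, with the summed level of 8 genes at 3480 to 4800 CPM in iTBS, 3450 to 4710 CPM in cTBS and 3530 to 5040 CPM in sham libraries. The libraries differed in RNAs that stay in the nucleus. The nuclear RNA level, the mean log2 CPM of 11 noncoding RNAs such as Malat1, was 7.41 ± 0.44 in iTBS, 6.61 ± 0.49 in cTBS and 7.35 ± 0.59 in sham libraries (SD, n = 5 each). In two-sided exact permutation tests adjusted over 6 comparisons, iTBS against sham gave p = 0.897, cTBS against sham p = 0.175 and iTBS against cTBS p = 0.175. The pairs involving cTBS had unadjusted exact permutation p-values of 0.0714 (with sham) and 0.0476 (with iTBS), where 0.00794 is the smallest that 5 against 5 allows. In each group the library with the lowest nuclear RNA level (iTBS 1, cTBS 4 and sham 4) was also the one with the most counts. The part of depth in this level was not tested. The striatal level, the mean log2 CPM of 12 genes of striatal projection neurons such as Drd1 and Adora2a, was 4.95 ± 0.68 in iTBS, 5.46 ± 0.73 in cTBS and 4.54 ± 0.99 in sham libraries (SD, n = 5 each). The adjusted exact permutation p was 0.562 in iTBS against sham, 0.175 in cTBS against sham and 0.417 in iTBS against cTBS. Every one of these striatal markers was above 0 in every library. Sham 2 also held thalamic markers, at a summed 187 CPM against 35.8 CPM in the lowest sham library, and cTBS 4, sham 2 and sham 5 held the most choroid plexus RNA. In bulk tissue, fewer cells of a type and less RNA per cell cannot be told apart.

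Levels in sham cortex were ordered per kilobase of exon. Snap25, the plasma membrane SNARE with the highest level of all members, was at 385 ± 47.4 CPM per kb in sham (SD, n = 5). Vamp2, the main synaptobrevin of forebrain vesicles, followed at 291 ± 43.0 CPM per kb, and the complexins Cplx2 and Cplx1, which hold and then help the SNARE complex, at 272 ± 29.8 and 264 ± 50.4 CPM per kb. Dnm1, the neuronal dynamin that pinches off endocytic vesicles, was at 245 ± 34.3 CPM per kb and the fast calcium sensor Syt1 at 232 ± 26.5 CPM per kb. These 5 neighbours of Snap25 in the order overlapped in their spread. Scaffold genes came lower, with Bsn at 86.7 ± 16.2 and Pclo at 29.5 ± 2.86 CPM per kb. The lowest were Unc13b at 3.79 ± 0.65, Erc1 at 3.79 ± 0.22 and Syn3, the least abundant synapsin, at 2.21 ± 0.19 CPM per kb. This order depends on the merged exon length, which was 22746 bases for Unc13b and 16271 bases for Erc1. Before that division Unc13b averaged 86.3 and Erc1 61.7 CPM in sham, above Doc2a at 11.7 CPM. In the synapsin, Rab3 and Munc13 families 1 gene was far above its relatives per kilobase of merged exons. Syn1 stood at 201 ± 44.8, against 53.8 ± 6.76 CPM per kb for Syn2. Rab3a stood at 205 ± 38.3, against 40.4 ± 5.04 for Rab3c and 13.8 ± 2.21 for Rab3b. The gap to Rab3c came with exon length, 2226 bases for Rab3a and 12049 for Rab3c. In CPM Rab3a averaged 455 ± 85.2 and Rab3c 486 ± 60.7 in sham (SD, n = 5). Unc13a, the main priming factor of glutamatergic terminals, stood at 39.7 ± 3.25, against 5.69 ± 3.11 for Unc13c and 3.79 ± 0.65 for Unc13b.

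**Figure D1:**
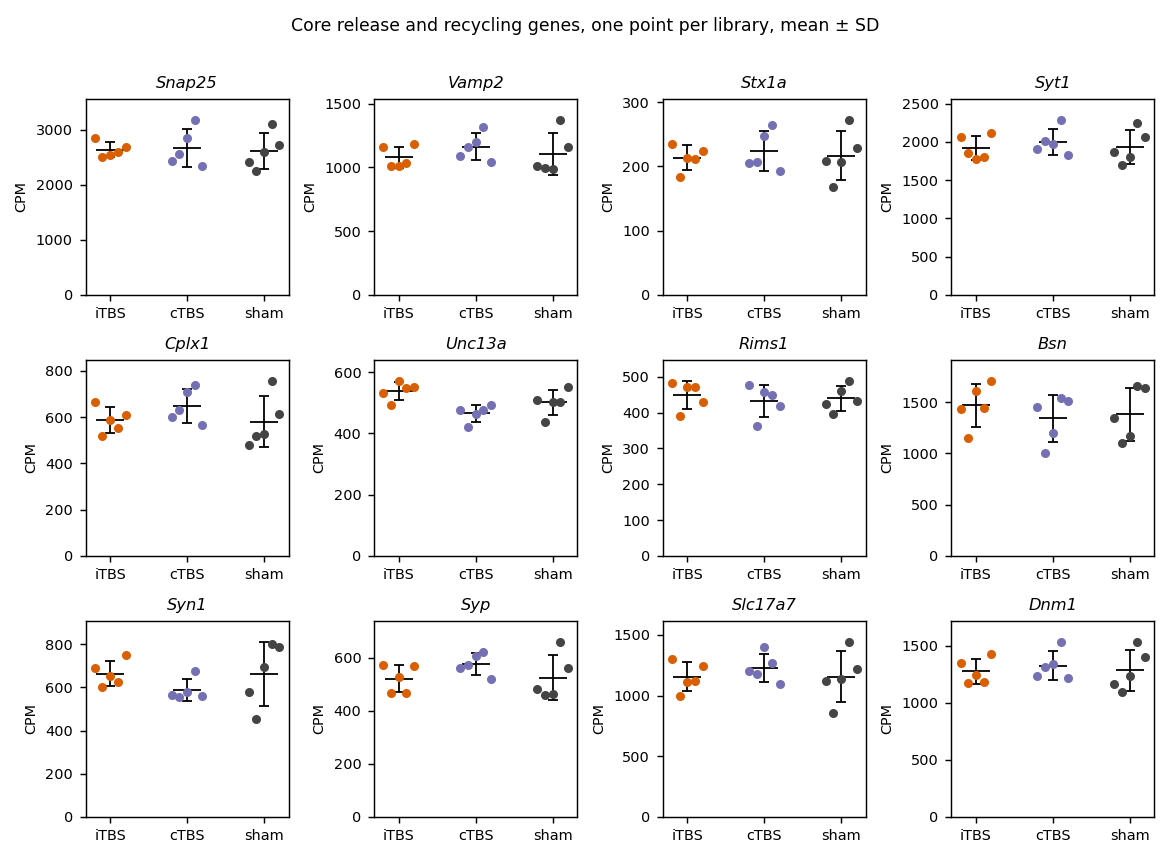
CPM of 12 core genes in each of the 15 libraries, 1 point per library, with iTBS, cTBS and sham from left to right and a bar for the mean ± SD of 5 libraries; all axes start at 0. The groups overlap in every panel, except that the 5 cTBS points of Unc13a (420 to 491 CPM) lie below the 5 iTBS points (493 to 571 CPM). Over all genes tested, 3.92% did not overlap between iTBS and cTBS.

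After iTBS no gene of the vesicle cycle passed the test against sham. In all, 0% of the 22998 genes had an adjusted p under 0.05 in edgeR's quasi-likelihood test, and 0 of the 47 members did. At an unadjusted p under 0.05 there were again 0 members, against 0.952% of all genes higher and 0.974% lower. With DESeq2, 0 members and 0% of all genes passed the adjusted test. Nor did any member separate iTBS from sham libraries without overlap, which 0.452% of all genes did. The members' log2 fold changes ran from -0.16 to 0.15, with a median of -0.01 beside -0.001 over all genes tested. A typical member was measured with a standard error of 0.090 on the log2 scale. These values therefore do not show that smaller differences are absent.

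Core fusion genes illustrate how close iTBS and sham lay. Snap25 was at 2851, 2509, 2538, 2593 and 2677 CPM in iTBS libraries, against 2406, 2253, 2601, 3093 and 2721 CPM in sham libraries. The log2 fold change was 0.01 ± 0.10 (SE), and the iTBS values all lay within the sham range. Vamp2 was at 1161, 1011, 1014, 1035 and 1182 CPM in iTBS libraries, against 1013, 999, 992, 1373 and 1160 CPM in sham libraries, a log2 fold change of -0.04 ± 0.10. Stx1a, the syntaxin of the plasma membrane, was at 235, 184, 214, 211 and 224 CPM in iTBS libraries, against 209, 168, 206, 272 and 228 CPM in sham libraries, a log2 fold change of -0.02 ± 0.12. In both genes sham 4 held the highest value of either group. Syt1 was at 2064, 1849, 1780, 1802 and 2121 CPM in iTBS libraries, against 1863, 1694, 1801, 2248 and 2063 CPM in sham libraries and Cplx1 at 663, 517, 588, 553 and 609.7 CPM in iTBS libraries, against 479, 519, 528, 756 and 612 CPM in sham libraries, with log2 fold changes of -0.01 ± 0.09 and 0.02 ± 0.12. Again sham 4 was the highest library for both genes.

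Vesicle, scaffold and endocytic genes also overlapped between the groups. Syn1, which tethers vesicles to one another in the reserve pool, was at 689.9, 602, 654, 626 and 750.3 CPM in iTBS libraries, against 579, 453, 696, 803 and 788 CPM in sham libraries, a log2 fold change of 0.00 ± 0.13. Syp, an integral vesicle protein, was at 571, 468, 529, 468 and 569 CPM in iTBS libraries, against 481, 458, 463, 659.5 and 561 CPM in sham libraries, a log2 fold change of -0.01 ± 0.10. The spread of Syn1 was wider among sham libraries, with a coefficient of variation of 22.3%, against 8.73% in iTBS libraries. Slc17a7 was at 1300, 994, 1114, 1120 and 1245 CPM in iTBS libraries, against 1121, 859, 1134, 1443 and 1219 CPM in sham libraries, a log2 fold change of -0.001 ± 0.12. Rims1, a RIM that binds Rab3 and calcium channels, was at 482, 389.6, 473, 472 and 430.2 CPM in iTBS libraries, against 424, 397, 461, 488 and 431 CPM in sham libraries, a log2 fold change of 0.03 ± 0.08. Bsn, the giant scaffold bassoon, was at 1432, 1152, 1608, 1448 and 1709 CPM in iTBS libraries, against 1344, 1099, 1172, 1658 and 1636 CPM in sham libraries, a log2 fold change of 0.09 ± 0.14. In both genes the ranges of the groups overlapped. Dnm1 was at 1347, 1178, 1240, 1187 and 1427 CPM in iTBS libraries, against 1164, 1095, 1235, 1535 and 1403 CPM in sham libraries, a log2 fold change of -0.01 ± 0.10.

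The smallest unadjusted p of a member in this comparison belonged to Syt2, a fast calcium sensor found in inhibitory and hindbrain terminals. It was at 99.8, 96.3, 121, 95.2 and 102 CPM in iTBS libraries, against 86, 92.4, 87, 106 and 93.5 CPM in sham libraries. The sham libraries other than sham 4 lay below every iTBS library, and the log2 fold change was 0.14 ± 0.08 (unadjusted p = 0.0725, adjusted p = 1). Unc13a was at 532, 493, 571, 546 and 549.6 CPM in iTBS libraries, against 509, 437, 503, 503 and 552 CPM in sham libraries, a log2 fold change of 0.10 ± 0.07 (unadjusted p = 0.147, adjusted p = 1). Amph, the amphiphysin that recruits dynamin, was at 199.6, 173, 175, 179.6 and 212 CPM in iTBS libraries, against 187, 185, 190.5, 226 and 202 CPM in sham libraries, and Syn2, a synapsin, at 391, 335, 297, 325 and 416 CPM in iTBS libraries, against 374, 333, 330.1, 431 and 422 CPM in sham libraries. Their log2 fold changes were -0.08 ± 0.07 and -0.10 ± 0.10. Erc1, a scaffold of the active zone, was at 59.7, 57.1, 57.8, 59.2 and 63.6 CPM in iTBS libraries, against 58, 59.6, 61.8, 61.4 and 67.4 CPM in sham libraries, and Rab3b, a vesicle GTPase, at 47.3, 48.3, 43.3, 41.6 and 46.9 CPM in iTBS libraries, against 45.4, 39.6, 44, 56.1 and 57.1 CPM in sham libraries. Their log2 fold changes were -0.05 ± 0.06 and -0.09 ± 0.11. In all 4 genes the groups overlapped and the adjusted p was 1.

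**Figure D2:**
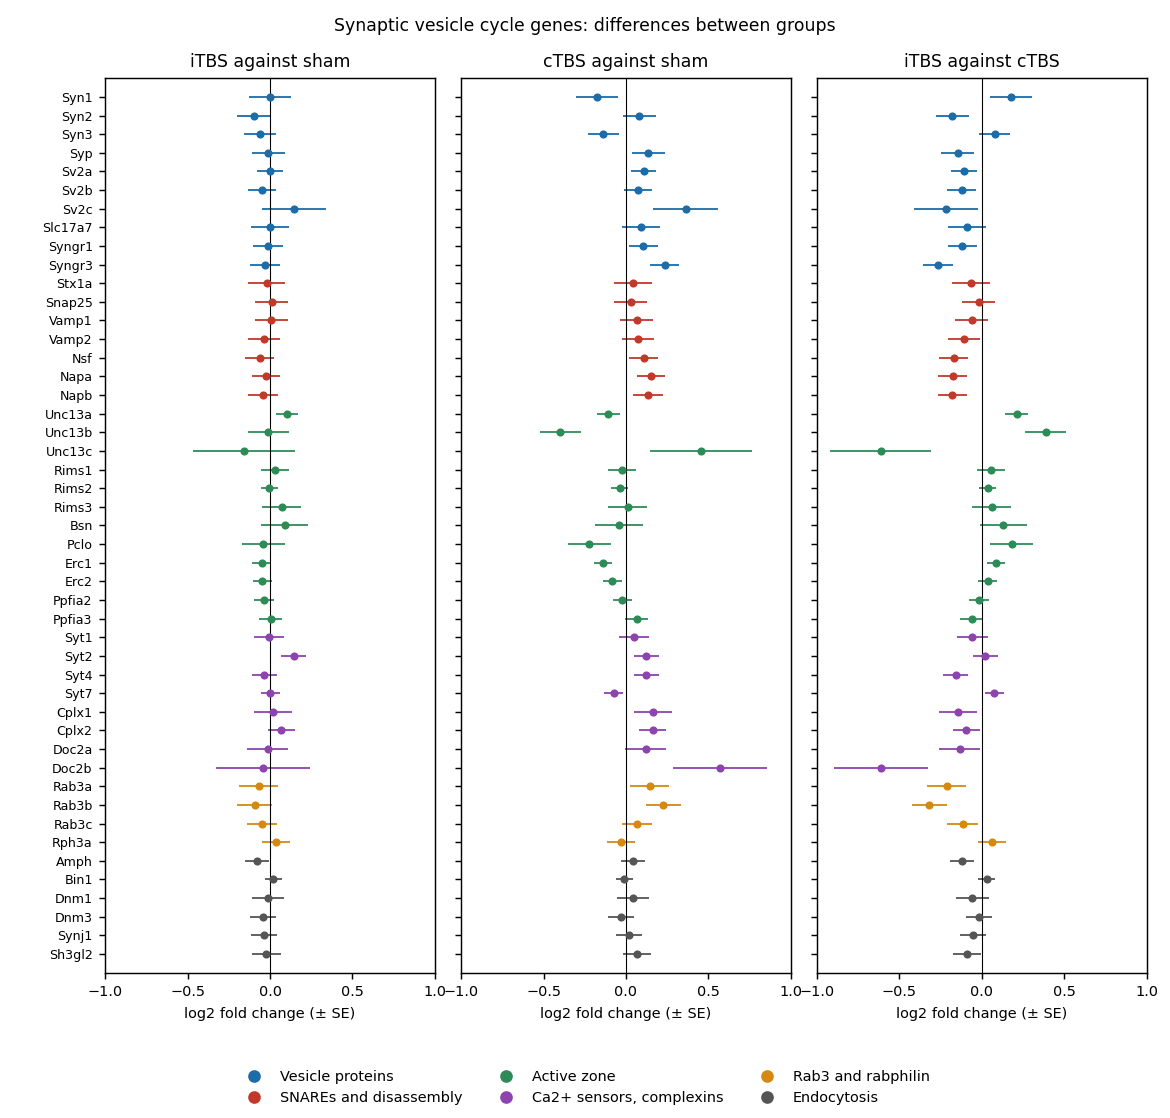
Log2 fold change ± SE of the 47 members by role for iTBS against sham, cTBS against sham and iTBS against cTBS. Values lie within -0.16 to 0.15 in the iTBS against sham panel, and run from -0.40 to 0.57 for cTBS against sham, with Unc13b the lowest and Doc2b the highest; no member passed an adjusted p of 0.05 in any panel.

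In cTBS cortex most vesicle and fusion genes read slightly above sham and most active zone genes slightly below it, but no member passed the test. Of the members, 0 had an adjusted p under 0.05, as did 0% of all genes, and the smallest adjusted p was 0.144. At an unadjusted p under 0.05 there were 2 higher members (Syngr3, Rab3b), against 6.8% of all genes, and 2 lower ones (Unc13b, Erc1), against 17.6% of all genes. In both directions together that is 8.51% of the members and 24.4% of all genes. No member separated the groups without overlap, which 1.34% of genes did. The median log2 fold change of the members was 0.07, beside -0.02 over all genes. DESeq2 called 0 members, beside 0.574% of all genes.

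By role, all 7 SNARE and disassembly genes had positive log2 fold changes, from 0.03 to 0.15, with none past an unadjusted p of 0.05. Of these, Stx1a, Snap25, Vamp1 and Vamp2 encode SNAREs, and Nsf, Napa and Napb encode disassembly factors. The highest of the 7 was Napa, the alpha-SNAP that works with the ATPase Nsf to take spent SNARE complexes apart, at 0.15 ± 0.09. Of the 8 calcium sensors and complexins 7 were above 0, of the 10 vesicle proteins 8, of the 4 Rab3 genes and rabphilin 3, and of the 6 endocytic genes 4. Of the 12 active zone genes 9 were below 0, with a median of -0.04. Over all roles 32 of the 47 members were above 0, beside 10700 of 22998 genes. Members share the same 15 libraries, so these counts are descriptions. These signs depend on whether the nuclear RNA level is in the model. Once that level was a term in the model, the median of the members was -0.07, with 0 members higher and 4 lower (8.51%) at an unadjusted p under 0.05. Over all genes 2.42% were higher and 3.23% lower in that fit. The median of the SNARE and disassembly genes was then -0.05 and the active zone median -0.12. The 4 lower members were Rph3a, Erc1, Syn1 and Syt7, with a smallest adjusted p of 0.873.

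Single core genes overlapped between cTBS and sham libraries. Snap25 was at 2423, 2563, 2849, 3174 and 2335 CPM in cTBS libraries, against 2406, 2253, 2601, 3093 and 2721 CPM in sham libraries, a log2 fold change of 0.03 ± 0.10. Syt1 was at 1907, 2007, 1968, 2286 and 1833 CPM in cTBS libraries, against 1863, 1694, 1801, 2248 and 2063 CPM in sham libraries, a log2 fold change of 0.05 ± 0.09. In both groups 1 library, cTBS 4 and sham 4, held the highest value, and these are also the libraries with the lowest nuclear RNA level in their groups, at 5.95 and 6.38. Vamp2 was at 1093, 1159, 1202, 1321 and 1043 CPM, Cplx1 at 598, 629, 707, 739 and 568 CPM and Stx1a at 205, 207, 248, 265 and 193 CPM in cTBS libraries. Their log2 fold changes against sham were 0.07 ± 0.10, 0.16 ± 0.12 and 0.04 ± 0.12, and cTBS 4 was again the highest of its group in each. Syn1 was at 565, 557, 579.7, 676 and 558 CPM in cTBS libraries, against 579, 453, 696, 803 and 788 CPM in sham libraries, a log2 fold change of -0.18 ± 0.13. Syp was at 560.4, 572, 608, 620.4 and 520.5 CPM, Slc17a7 at 1205, 1175, 1402, 1269 and 1097 CPM and Dnm1 at 1232, 1312, 1338, 1530 and 1222 CPM in cTBS libraries, with log2 fold changes against sham of 0.14 ± 0.10, 0.09 ± 0.12 and 0.05 ± 0.10. All cTBS values of these genes lay within the sham range. Rims1 was at 476, 362, 458, 449 and 419 CPM and Bsn at 1452, 1008, 1197, 1546 and 1511 CPM, with log2 fold changes of -0.02 ± 0.08 and -0.04 ± 0.14.

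Unc13b, a second Munc13 priming factor that prepares docked vesicles for release, had the smallest unadjusted p of all members. It was at 55.2, 68.4, 61.8, 66.7 and 74.7 CPM in cTBS libraries, against 100.5, 78.2, 98.3, 65.2 and 89.2 CPM in sham libraries. Of the cTBS libraries 4 lay at or below 68.4 CPM, and 1 sham library, sham 4, lay as low. The log2 fold change was -0.40 ± 0.12 (unadjusted p = 0.00543, adjusted p = 0.144). With the nuclear RNA level in the model it was -0.12 ± 0.09 (unadjusted p = 0.195). Erc1 was at 53.6, 54.6, 52.7, 60.8 and 58.4 CPM in cTBS libraries, against 58, 59.6, 61.8, 61.4 and 67.4 CPM in sham libraries. Its log2 fold change was -0.14 ± 0.06 (unadjusted p = 0.024, adjusted p = 0.159), and it was -0.18 ± 0.06 with the nuclear RNA level in the model. It lay between -0.16 and -0.07 (without cTBS 3) when 1 library was left out, and at -0.09 without iTBS 1, which enters this comparison only through scaling and the shared spread. In the annotation used for names, 11.8% of the Erc1 exon length lies opposite to an antisense gene, so reads of both may be mixed.

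Syngr3, a synaptogyrin of the vesicle membrane, was at 142, 151, 139.8, 144 and 131 CPM in cTBS libraries, against 110.3, 109.8, 101, 146 and 135 CPM in sham libraries. Of the sham libraries 3 lay below every cTBS library and sham 4 and sham 5 lay among them. The log2 fold change was 0.23 ± 0.09 (unadjusted p = 0.0181, adjusted p = 0.151), and 0.08 ± 0.07 with the nuclear RNA level in the model. Rab3b was at 52.8, 64.9, 52.9, 65.4 and 47.8 CPM in cTBS libraries, against 45.4, 39.6, 44, 56.1 and 57.1 CPM in sham libraries, a log2 fold change of 0.23 ± 0.11 (unadjusted p = 0.0486, adjusted p = 0.202), and 0.09 ± 0.11 with that level in the model. Cplx2 was at 1571, 1437, 1452, 1573 and 1481 CPM in cTBS libraries, against 1347, 1179, 1243, 1563 and 1375 CPM in sham libraries, a log2 fold change of 0.16 ± 0.08 (unadjusted p = 0.0633, adjusted p = 0.225), and 0.03 ± 0.07 with the nuclear RNA level in the model. Doc2b, a high-affinity calcium sensor linked to spontaneous release, was at 38, 42, 14.2, 27.5 and 40.1 CPM in cTBS libraries, against 25.5, 31.8, 12, 17.2 and 22.6 CPM in sham libraries. The values spread about as widely within each group as between them. Its log2 fold change was 0.57 ± 0.28 (unadjusted p = 0.0613, adjusted p = 0.222), and it was -0.06 with both marker levels, nuclear and striatal, in the model.

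Members passed the test after cTBS in edgeR only when sham 4 was left out, among the 15 fits that leave out 1 library. Without it, edgeR called 5726 genes, 24.4% of those tested, and 9 members, with a median log2 fold change of 0.17 beside 0.02 over all genes. Higher were Cplx1, Cplx2, Napa, Rab3b, Syngr3, Syp, Syt2 and Syt4, and lower was Unc13b. Syngr3 was then at 0.36 (adjusted p = 0.0173) and Unc13b at -0.44 (adjusted p = 0.0173). Over all alternatives the adjusted p ran from 0.0173 to 0.918 for Syngr3 and from 0.0173 to 0.894 for Unc13b. In the fit of limma-voom with quality weights 5 members were called (Cplx1, Cplx2, Napa, Syngr3 and Unc13b), together with 23.7% of all genes. Whether the low nuclear RNA level of sham 4 accounts for this was not tested.

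**Figure D3:**
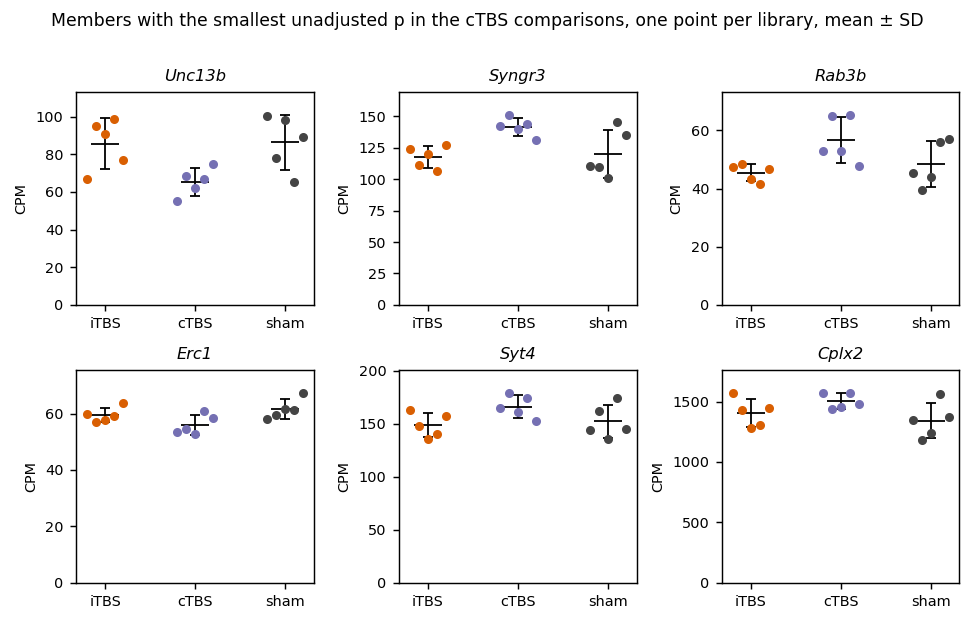
CPM of the 6 members Unc13b, Syngr3, Rab3b, Erc1, Syt4 and Cplx2 in each of the 15 libraries, 1 point per library, with iTBS, cTBS and sham from left to right and a bar for the mean ± SD; axes start at 0. Unc13b is lower in cTBS (55.2 to 74.7 CPM) than in most iTBS and sham libraries. Syngr3 separates cTBS (131 to 151 CPM) from iTBS (106 to 127 CPM), as did 3.92% of all genes, but not from sham.

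Set against each other, the 2 protocols again left no member past the test. Of the members, 0 had an adjusted p under 0.05, as did 0% of all genes, and the smallest adjusted p was 0.0842. At an unadjusted p under 0.05, 2 members were higher in iTBS than in cTBS, against 20% of all genes, and 4 were lower, against 10.6% of all genes. In total that is 12.8% of the members and 30.6% of all genes. The groups did not overlap for 2 of the 47 members and for 901 of 22998 genes (3.92%), so the share of members was near that of all genes. The median log2 fold change was -0.07, beside 0.03 over all genes. All 7 SNARE and disassembly genes were below 0, from -0.02 to -0.18. The SNAREs alone ran from -0.02 for Snap25 to -0.11 for Vamp2. Of the active zone genes 9 of 12 were above 0. Over all roles 32 of the 47 members were below 0, beside 10608 of 22998 genes. The median of the SNARE and disassembly genes was -0.11. It turned to 0.07 with the nuclear RNA level in the model, where the active zone median was 0.11. In that fit 6 members (12.8%) were higher at an unadjusted p under 0.05, against 4.19% of all genes. They were Rph3a, Unc13a, Syn1, Bsn, Rims3 and Syt7. Doc2b alone was lower (2.13%), against 3.24% of all genes. Rph3a had the smallest adjusted p of the members, 0.563, at a log2 fold change of 0.24 ± 0.07. The comparison shares its cTBS libraries with cTBS against sham, so its values are not a second source of the same pattern. The mean nuclear RNA level was 0.80 higher in iTBS than in cTBS libraries.

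The 2 genes without overlap were Unc13a and Syngr3. Unc13a was at 532, 493, 571, 546 and 549.6 CPM in iTBS libraries, against 478, 420.3, 462, 476 and 491 CPM in cTBS libraries. The lowest iTBS library stood just above the highest cTBS library, and the sham libraries, at 509, 437, 503, 503 and 552 CPM, lay across both. The log2 fold change was 0.21 ± 0.07 (unadjusted p = 0.00694, adjusted p = 0.0848). It was 0.24 ± 0.08 with the nuclear RNA level in the model (unadjusted p = 0.00677, adjusted p = 0.574). Syngr3 was at 124, 112, 119.9, 106 and 127 CPM in iTBS libraries, against 142, 151, 139.8, 144 and 131 CPM in cTBS libraries. Its log2 fold change was -0.27 ± 0.09 (unadjusted p = 0.00862, adjusted p = 0.0875), and -0.10 ± 0.08 with the nuclear RNA level in the model.

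Unc13b was at 66.7, 95.2, 90.6, 98.7 and 77 CPM in iTBS libraries, against 55.2, 68.4, 61.8, 66.7 and 74.7 CPM in cTBS libraries, a log2 fold change of 0.39 ± 0.12 (unadjusted p = 0.00647, adjusted p = 0.0842), and 0.09 ± 0.09 with the nuclear RNA level in the model. Rab3b was at 47.3, 48.3, 43.3, 41.6 and 46.9 CPM in iTBS libraries, against 52.8, 64.9, 52.9, 65.4 and 47.8 CPM in cTBS libraries, a log2 fold change of -0.32 ± 0.11 (unadjusted p = 0.00831, adjusted p = 0.0871), and -0.17 ± 0.11 with the nuclear RNA level in the model (unadjusted p = 0.151). Only cTBS 5 lay within the iTBS range of Rab3b. Syt4, a synaptotagmin, was at 162, 147, 136, 139.9 and 158 CPM in iTBS libraries, against 164, 179, 161, 174 and 152 CPM in cTBS libraries. Its log2 fold change was -0.16 ± 0.07 (unadjusted p = 0.0477, adjusted p = 0.159), and -0.03 ± 0.07 with the nuclear RNA level in the model (unadjusted p = 0.69). Doc2b was at 19.2, 30.4, 14.7, 16.1 and 24.8 CPM in iTBS libraries, against 38, 42, 14.2, 27.5 and 40.1 CPM in cTBS libraries, a log2 fold change of -0.61 ± 0.28 (unadjusted p = 0.0457, adjusted p = 0.156), and -0.22 with both marker levels in the model (unadjusted p = 0.146). DESeq2 called 3 members, Rab3b, Syngr3 and Unc13b, beside 11.4% of all genes, and so did edgeR without iTBS 1, without cTBS 5 or without sham 4. In those edgeR fits 19.1%, 14.4% and 15.5% of all genes were called. Over all alternatives the adjusted p of Unc13b ran from 0.015 to 0.878.

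The remaining members are given by their group means, apart from Sv2c and Unc13c, whose libraries are described with the striatal level. Among vesicle proteins, Sv2a and Sv2b, glycoproteins of the vesicle membrane, averaged 448 ± 40.2 CPM in iTBS libraries, 483 ± 24.2 CPM in cTBS libraries and 448 ± 45.5 CPM in sham libraries (SD, n = 5 each) and 594 ± 62.5 CPM in iTBS libraries, 647 ± 54.3 CPM in cTBS libraries and 614 ± 53.9 CPM in sham libraries (SD, n = 5 each). Syngr1, a synaptogyrin, averaged 544 ± 53.9 CPM in iTBS libraries, 590.1 ± 37.6 CPM in cTBS libraries and 548 ± 70.5 CPM in sham libraries (SD, n = 5 each), and Syn3 averaged 25.9 ± 2.32 CPM in iTBS libraries, 24.6 ± 3.49 CPM in cTBS libraries and 27.1 ± 2.28 CPM in sham libraries (SD, n = 5 each). The largest gap among these means was smaller than the sum of the SDs of the groups it separates. Nsf averaged 725 ± 74.6 CPM in iTBS libraries, 816 ± 74.5 CPM in cTBS libraries and 757 ± 72.2 CPM in sham libraries (SD, n = 5 each), and the SNAPs that load it onto spent complexes, Napa and Napb, averaged 208 ± 13.6 CPM in iTBS libraries, 235 ± 21.5 CPM in cTBS libraries and 211 ± 27.2 CPM in sham libraries (SD, n = 5 each) and 559 ± 62.3 CPM in iTBS libraries, 632 ± 57.7 CPM in cTBS libraries and 576 ± 54.2 CPM in sham libraries (SD, n = 5 each). Vamp1, the synaptobrevin more typical of brainstem and spinal cord, averaged 133 ± 9.85 CPM in iTBS libraries, 139 ± 18 CPM in cTBS libraries and 132 ± 19.3 CPM in sham libraries (SD, n = 5 each). For Nsf, Napa and Napb the cTBS mean was the highest, with log2 fold changes for iTBS against cTBS of -0.17 ± 0.09, -0.18 ± 0.09 and -0.18 ± 0.09 and a smallest unadjusted p of 0.0544.

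Scaffolds, sensors and endocytic genes are given in the same way. Rims2, a RIM, averaged 215 ± 10.4 CPM in iTBS libraries, 209.7 ± 6.71 CPM in cTBS libraries and 216 ± 11.6 CPM in sham libraries (SD, n = 5 each), and Rims3 averaged 342 ± 44.6 CPM in iTBS libraries, 328 ± 43.3 CPM in cTBS libraries and 325 ± 54 CPM in sham libraries (SD, n = 5 each). Ppfia2 and Ppfia3, the liprins that organise active zones, averaged 142 ± 5.87 CPM in iTBS libraries, 143 ± 11.5 CPM in cTBS libraries and 145 ± 6.99 CPM in sham libraries (SD, n = 5 each) and 184 ± 11.9 CPM in iTBS libraries, 192 ± 12.3 CPM in cTBS libraries and 183 ± 16.4 CPM in sham libraries (SD, n = 5 each). Erc2 averaged 207 ± 10.4 CPM in iTBS libraries, 202 ± 13.2 CPM in cTBS libraries and 214 ± 8.08 CPM in sham libraries (SD, n = 5 each) and Pclo 644 ± 84.1 CPM in iTBS libraries, 568 ± 122 CPM in cTBS libraries and 663 ± 64.2 CPM in sham libraries (SD, n = 5 each). Pclo was lower in cTBS 1, cTBS 2 and cTBS 3, at 588, 451 and 434 CPM, than in any sham library, and its log2 fold change for cTBS against sham was -0.22 ± 0.13 (unadjusted p = 0.109). Syt7, the slow calcium sensor of asynchronous release, averaged 345 ± 14.1 CPM in iTBS libraries, 327 ± 13.8 CPM in cTBS libraries and 345 ± 22.1 CPM in sham libraries (SD, n = 5 each), and Doc2a, a relative of Doc2b, averaged 11.6 ± 1.61 CPM in iTBS libraries, 12.7 ± 1.22 CPM in cTBS libraries and 11.7 ± 2.12 CPM in sham libraries (SD, n = 5 each). Rab3a averaged 434 ± 47.8 CPM in iTBS libraries, 503 ± 61.4 CPM in cTBS libraries and 455 ± 85.2 CPM in sham libraries (SD, n = 5 each), Rab3c 470.1 ± 49.3 CPM in iTBS libraries, 509.8 ± 34.9 CPM in cTBS libraries and 486 ± 60.7 CPM in sham libraries (SD, n = 5 each) and Rph3a 546 ± 48.8 CPM in iTBS libraries, 522 ± 37.7 CPM in cTBS libraries and 533 ± 60.5 CPM in sham libraries (SD, n = 5 each). The log2 fold changes of these sensors and Rab3 genes for cTBS against sham ran from -0.07 for Syt7 to 0.14 for Rab3a. Bin1 averaged 193 ± 5.34 CPM in iTBS libraries, 189 ± 6.52 CPM in cTBS libraries and 190.4 ± 11.1 CPM in sham libraries (SD, n = 5 each). Dnm3, a further dynamin, averaged 245 ± 20.3 CPM in iTBS libraries, 248 ± 27.4 CPM in cTBS libraries and 253 ± 13.1 CPM in sham libraries (SD, n = 5 each). The phosphatase Synj1 averaged 480.4 ± 43.6 CPM in iTBS libraries, 499 ± 44.8 CPM in cTBS libraries and 492 ± 38.6 CPM in sham libraries (SD, n = 5 each). Sh3gl2 averaged 279 ± 24.5 CPM in iTBS libraries, 296 ± 29.8 CPM in cTBS libraries and 283 ± 28.7 CPM in sham libraries (SD, n = 5 each). None of these 4 endocytic genes had a log2 fold change beyond 0.09 in either direction in any of the 3 comparisons.

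Within groups many members fell as the nuclear RNA level of the library rose. Of the 47 members 29 had a slope on that level at an adjusted p under 0.05 in edgeR with a term per group, against 44.5% of all genes. By direction, 28 of the 47 members had a called negative slope, against 16.1% of all genes, and 1 a called positive slope, against 28.3% of all genes. The median slope of the members was -0.19 log2 units per unit of nuclear RNA level, and that of all genes was 0.03. Without sham 4, the sham library with the lowest level, 18 members and 29.5% of genes were called. With any other single library left out, the count lay between 27 and 34, beside 41% to 48.7% of all genes.

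By role, the largest numbers were among vesicle proteins and among SNARE and disassembly genes. Among vesicle proteins 8 of 10 fell with the level, with Syp at -0.27 ± 0.05 (adjusted p = 6.6e-04) and Syngr1 at -0.23 ± 0.05 (adjusted p = 0.00147). Syn3 and Sv2c did not pass. Among SNARE and disassembly genes 6 of 7 fell, Vamp1 being the exception at -0.17 ± 0.07 (adjusted p = 0.0809). Vamp2 was at -0.26 ± 0.05 (adjusted p = 7.18e-04). Among sensors and complexins 5 of 8 fell, led by Cplx1 at -0.30 ± 0.06 (adjusted p = 8.61e-04). Rab3a, the main Rab3 of vesicles, was at -0.30 ± 0.07 (adjusted p = 0.00172), and Rph3a, its effector rabphilin, at -0.22 ± 0.05 (adjusted p = 0.00163). Of the endocytic genes 4 of 6 fell, with Dnm1 at -0.23 ± 0.06 (adjusted p = 0.00384) and the endophilin Sh3gl2 at -0.21 ± 0.05 (adjusted p = 0.00372).

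Among active zone genes 3 of 12 passed the threshold. In the annotation used for names, part of the exon length of some members lies opposite an antisense gene, so their values may hold reads of both. The largest shares were 39.4% for Doc2a, 24.5% for Ppfia2, 16.8% for Syp, 14.5% for Syt4 and 14.1% for Syn3. Bsn, at -0.28 ± 0.10 (adjusted p = 0.0306), and Rims3, a short RIM, at -0.26 ± 0.08 (adjusted p = 0.011), fell with the level. The Bsn call was lost with the replicate block and without iTBS 2, sham 3 or sham 4, and the Rims3 call without sham 4. Unc13b rose with it, at 0.35 ± 0.07 (adjusted p = 4.94e-04), the only member to do so. Its slope stayed between 0.30 and 0.46 over the 21 alternatives, all past the threshold. The paralogue Unc13a was at -0.03 ± 0.06 (adjusted p = 0.681). The long scaffold Pclo was at -0.03 ± 0.11, the ELKS gene Erc2 at 0.02 ± 0.05 and Rims2 at 0.02 ± 0.04. Across the 47 members the slope ranked with the genomic span of the gene at a Spearman rho of 0.534 and with its exon length at 0.569. Across 15245 protein-coding genes tested the same values were 0.056 and 0.14. The points share the same 15 libraries, so these are descriptions.

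**Figure D4:**
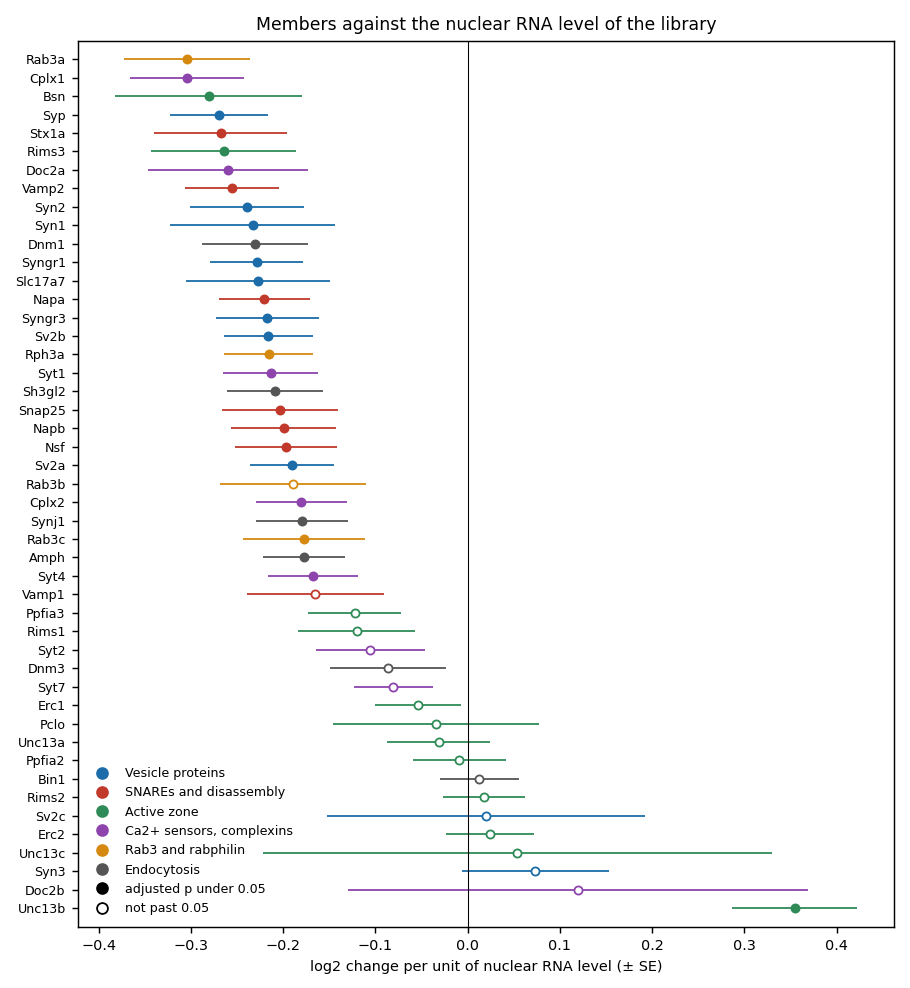
Slope ± SE of each of the 47 members on the nuclear RNA level of the library (log2 change per unit of the level, with a term per group), ordered from the most negative at the top and coloured by role; filled points passed an adjusted p of 0.05. Rab3a (-0.30) and Cplx1 (-0.30) lead the 28 called negative slopes, and Unc13b (0.35) is the only called positive one.

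A smaller set followed the striatal level. With a term per group 3 members had a slope at an adjusted p under 0.05, against 1.8% of all genes, and all 3 were positive, against 1.27% of genes with a called positive slope and 0.53% with a negative one. They were Sv2c at 0.42 ± 0.05 (adjusted p = 4.06e-05), Doc2b at 0.62 ± 0.07 (adjusted p = 7.93e-05) and Unc13c at 0.61 ± 0.09 (adjusted p = 8.99e-04). Sv2c encodes the SV2 form known for striatal and other basal ganglia terminals, and Unc13c the Munc13 best known from cerebellar granule cells. These were also the most variable members between replicates, with coefficients of variation averaged over the groups of 23.9% for Sv2c, 33.8% for Doc2b and 39.9% for Unc13c. The median member had 9.71%, and the 9313 genes at or above the lowest member had a median of 8.52%. Leaving out any single library gave 3 or 4 calls, Sv2c, Doc2b and Unc13c among them each time, beside 0.754% to 2.3% of all genes. With the replicate number as a block 0 members were called, beside 0.143% of all genes (adjusted p = 0.152 for Sv2c, 0.184 for Doc2b and 0.752 for Unc13c). With the nuclear RNA level in the same fit 9 members and 5.14% of all genes were called, these 3 positive and 6 negative (Cplx1, Rab3a, Rims3, Slc17a7, Stx1a and Vamp1). The least variable members were Bin1, an amphiphysin relative, at 4.02%, and Rims2 at 4.48%.

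Sv2c was at 82.5, 121, 74.9, 68.4 and 107 CPM in iTBS libraries, 116, 125, 67, 101 and 119.7 CPM in cTBS libraries and 89.3, 110.3, 55.1, 72.3 and 83.5 CPM in sham libraries. The low libraries of each group, cTBS 3, iTBS 4 and sham 3, were those with the lowest striatal level in their group. Unc13c was at 43.3, 62.1, 33, 36.9 and 48.5 CPM in iTBS libraries, 108, 62.3, 39.3, 50.7 and 82.8 CPM in cTBS libraries and 50.7, 96.9, 31.4, 39.3 and 32.1 CPM in sham libraries. The highest values of Unc13c were in cTBS 1 and sham 2, which had striatal levels of 6.00 and 5.71. At similar levels, 6.02 in iTBS 2 and 5.87 in cTBS 2, it was at 62.1 and 62.3 CPM. Sham 2 also had a thalamic level (mean log2 CPM of the thalamic markers) of 3.9, against 1.17 to 2.07 in the other 14 libraries. For cTBS against sham the log2 fold changes were 0.36 ± 0.20 for Sv2c and 0.46 ± 0.31 for Unc13c. They were -0.09 and -0.11 once both marker levels, nuclear and striatal, entered the model. How much of these differences comes with striatal tissue was not tested beyond these fits. Slc17a7, carried by cortical and not by striatal neurons, had a slope of -0.16 ± 0.05 (adjusted p = 0.182), and among the alternatives run it passed only with the nuclear RNA level in the same fit.

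**Figure D5:**
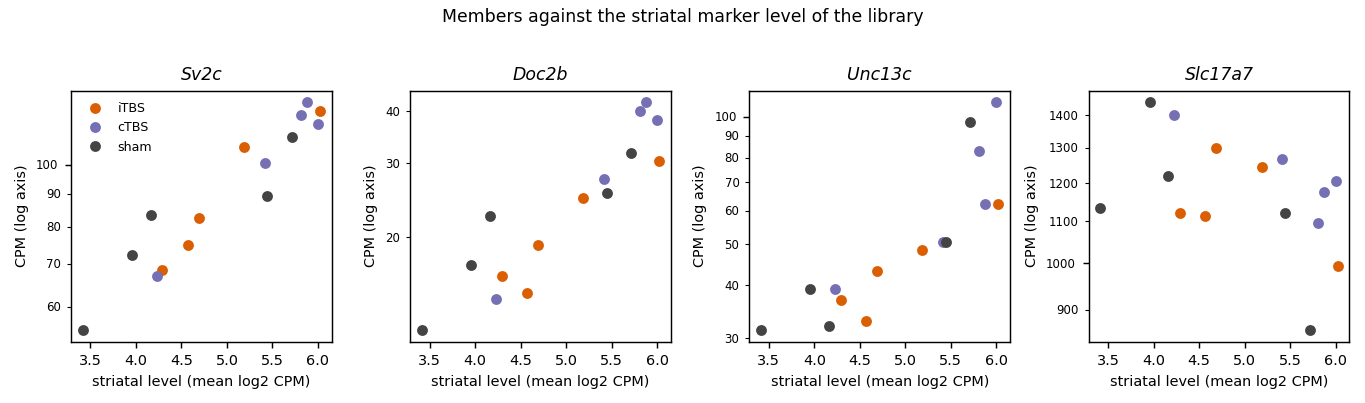
CPM (log axis) of Sv2c, Doc2b, Unc13c and Slc17a7 against the striatal level (mean log2 CPM of 12 markers) in the 15 libraries, coloured by iTBS, cTBS and sham. Sv2c, Doc2b and Unc13c rise with the level, with slopes of 0.42, 0.62 and 0.61, and Slc17a7 has a slope of -0.16 that did not pass the adjusted test.

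Promoter sequences are shown for members that the results above set apart: Unc13b and Unc13a, paralogues with different slopes on the nuclear RNA level, Sv2c, which followed the striatal level, and Syn1, a member with the full cyclic AMP response element. Each is the 250 bases before the gene's start, from RefSeq on GRCm38.p6, which is not the build of the submitters' processing notes. Capitals mark matches on either strand to GC boxes (GGGCGG), a cyclic AMP response element (TGACGTCA), an E-box (CACGTG) and an EGR motif (GCGTGGGCG). In Unc13a the EGR match overlaps a GC box. The places are chr4:43058703-43058952 on the plus strand for Unc13b, and chr8:71671758-71672007 for Unc13a, chr13:96132578-96132827 for Sv2c and chrX:20920919-20921168 for Syn1, all on the minus strand. Sequences are written 5′ to 3′ along the gene.
Unc13b: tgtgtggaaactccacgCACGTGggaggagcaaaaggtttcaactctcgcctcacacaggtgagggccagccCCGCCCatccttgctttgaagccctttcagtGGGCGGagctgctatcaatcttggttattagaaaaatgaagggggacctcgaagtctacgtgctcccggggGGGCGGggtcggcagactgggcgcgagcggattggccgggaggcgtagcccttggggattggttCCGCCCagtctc
Unc13a: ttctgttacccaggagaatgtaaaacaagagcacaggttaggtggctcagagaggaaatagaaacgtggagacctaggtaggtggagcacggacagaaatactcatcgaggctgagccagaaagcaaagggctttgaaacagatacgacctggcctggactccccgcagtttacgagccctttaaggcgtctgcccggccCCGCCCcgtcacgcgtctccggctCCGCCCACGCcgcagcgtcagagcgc
Sv2c: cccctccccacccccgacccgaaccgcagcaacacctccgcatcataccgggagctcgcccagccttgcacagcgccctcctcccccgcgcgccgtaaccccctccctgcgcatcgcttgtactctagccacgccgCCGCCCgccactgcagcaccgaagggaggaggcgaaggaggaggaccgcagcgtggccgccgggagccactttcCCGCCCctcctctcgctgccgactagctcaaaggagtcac
Syn1: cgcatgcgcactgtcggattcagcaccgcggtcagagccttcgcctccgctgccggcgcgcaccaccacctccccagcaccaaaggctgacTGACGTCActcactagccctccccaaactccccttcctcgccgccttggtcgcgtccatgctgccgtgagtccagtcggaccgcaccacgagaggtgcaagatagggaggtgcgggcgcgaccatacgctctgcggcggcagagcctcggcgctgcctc

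Promoters of 37 of the 47 members were in the RefSeq table. The genes of that table were not filtered for expression in cortex, while all members passed such a filter. The shares below therefore compare unlike sets. A GC box lay in 27 of them (73.0%), against 35.4% of the 27025 genes in the table, and the median GC content was 61.2%, against 52.4%. The Unc13b stretch holds 4 GC boxes and 1 E-box, those of Unc13a and Sv2c hold 2 GC boxes each, and that of Syn1 holds none. The response element lay in 2 members (5.4%), Syn1 and Sh3gl2, against 1.77% of all genes, and an EGR motif in 2, Unc13a and Synj1, against 0.622%. A TATA box (TATAAA) was found in 2 members, against 14.3% of all genes. A match is a description of letters and shows no binding.

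A wider list of 86 matched vesicle cycle genes outside the 47 was tested in the same fits. After iTBS 0 passed the adjusted test and 2 had an unadjusted p under 0.05, both lower, which is 2.33% of the list and 1.93% of all genes. Sncg, a synuclein, was at -0.66 ± 0.29 and Syt9 at -0.58 ± 0.26 on the log2 scale, and Slc17a6, the glutamate transporter of thalamic and other subcortical terminals, followed at -0.48 ± 0.23. The last was at 69 CPM in sham 2, against 24.4 to 32.2 CPM in the other sham libraries, and the thalamic level (mean log2 CPM of the thalamic markers) was 3.9 in sham 2 and 1.17 to 2.07 in the other 14 libraries. Without sham 2 the log2 fold changes were -0.51 ± 0.30 for Sncg, -0.14 ± 0.14 for Syt9 and -0.12 ± 0.13 for Slc17a6, with unadjusted p-values of 0.11, 0.349 and 0.373. After cTBS 0 passed, with 8 higher and 4 lower at an unadjusted p under 0.05, or 14% of the list. Over all genes 6.8% were higher and 17.6% lower, 24.4% in total. The first 3 were Slc32a1, the vesicular GABA transporter, at 0.41 ± 0.12, Syt3 at 0.19 ± 0.07 and the secretory carrier Scamp1 at 0.21 ± 0.08. In iTBS against cTBS 0 passed, with 7 higher and 17 lower at an unadjusted p under 0.05, or 27.9% of the list. Over all genes 20% were higher and 10.6% lower, 30.6% in total. These began with the vesicle protein Synpr at -0.31 ± 0.10, the RIM-binding protein Rimbp2 at 0.19 ± 0.06 and the endophilin Sh3gl3 at -0.23 ± 0.08. On the nuclear RNA level 49 of the 86 (57%) had a called slope, 42 of them negative. Over all genes 44.5% had a called slope, 16.1% a negative and 28.3% a positive one. GABAergic markers, a list of 6, were summed at 522 to 821 CPM in cTBS and 467 to 611 CPM in sham libraries. Their part in the Slc32a1 value was not tested.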

How the data were processed

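Gene counts came from total RNA libraries depleted of ribosomal RNA, made with a stranded kit per the labels' protocols. The authors deposited raw counts per Ensembl gene, with no normalization, and a second table of the same genes after variance stabilization, close to log2; the stabilized values were used in 1 alternative. The tools named in the submitters' processing notes are STAR, fastp and DESeq2, with build GRCm39 (mm39). For the counter, annotation release and strand setting the labels name nothing, so genes with antisense partners are uncertain.

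Counts were tested with edgeR 4.0.16 (R 4.3.3) by its quasi-likelihood F test with TMM scaling, the default expression filter by group and a term per group over all 15 libraries. P-values were adjusted by Benjamini-Hochberg over 22998 genes, which held 99.89% of the counts, at a threshold of 0.05. The standard error is the size of the log2 value divided by the square root of F. Slopes on a marker level (mean log2 CPM with a prior count of 2) came from the same test with that level added. Exon lengths, names and overlaps come from GENCODE M21 on GRCm38; 52073 of 56748 identifiers had a name. The common biological coefficient of variation was 20.1%, and 0 pairs of libraries were identical. Alternatives used DESeq2 1.42.0 and limma 3.58.1 among others.

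The members, lists and tests were chosen with earlier results of these data known. Values per library are given for 12 core members and for the 6 members with the smallest p per comparison; those of Sv2c and Unc13c were added after their values were seen. Of the wider list, 86 of 87 symbols were matched, and the 3 with the smallest p per comparison are named. Promoters to print were chosen after the results. Leaving out the 3 libraries highest in choroid plexus RNA was added after seeing the data, as was leaving out sham 2 for the wider list after iTBS. Same-numbered libraries of different groups correlated from -0.564 to 0.717 in their deviations from group means, so the numbers were not taken to pair animals.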

Additional observations from a re-analysis of the deposited data

Results flagged for a closer look

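A sample stood far from the other 4 of its group in 5 of the 141 combinations of member and group, or 3.55%; chance alone would do so in about 1 in 20. Syn1 was at 677 CPM in cTBS 4, against 557 to 580 CPM in the other cTBS libraries. Napb, a beta-SNAP, was at 669 CPM in sham 4, against 537 to 575 CPM in the other sham libraries. Rims3 was at 265 CPM in iTBS 2, against 350 to 380 CPM in the other iTBS libraries. Pclo was at 776 CPM in sham 5, against 621 to 653 CPM in the other sham libraries. Syt2 was at 121 CPM in iTBS 3, against 95.2 to 102 CPM in the other iTBS libraries.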

How the results depend on the processing

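The medians of both comparisons with cTBS changed sign once marker levels entered the model. For iTBS against sham 0 members passed the adjusted test under every alternative. At an unadjusted p under 0.05 the count was 1 with limma-voom with quality weights (2.67% of all genes) and 1 with nuclear RNA as covariate (3.46%). It was 5 with nuclear RNA and striatal levels together (5.99%) and 1 with library number as a covariate (2.13%). When 1 library was left out it was 0 to 1 (1.45% to 2.41%). For cTBS against sham limma-voom called 5 members, beside 23.7% of all genes. Leaving out 1 library gave 0 to 9, with 24.4% of all genes called beside the 9. Unadjusted, the count was 16 with limma-voom (40% of all genes), 7 with the replicate block (24.4%) and 2 with only the 2 groups in the fit (22.8%). It was 2 to 17 when 1 library was left out, the 17 without sham 4 (41.4%). The median log2 fold change was -0.070 with the nuclear RNA level and -0.044 with both levels as covariates, and 0.023 to 0.17 without 1 library. For iTBS against cTBS the adjusted count was 3 with DESeq2 (11.4% of all genes), 9 with limma-voom (29.8%) and 0 to 3 without 1 library (0% to 19.1%). Unadjusted, it was 18 with limma-voom (43.7% of all genes), 11 with no filter on low counts (21%) and 12 with only the 2 groups (32.9%). It was 4 to 13 without 1 library, the 13 without sham 4 (36.2%). The median was 0.060 with the nuclear RNA level and 0.048 with both levels. The count of nuclear RNA slopes was 18 to 34 without 1 library, beside 29.5% to 48.7% of all genes. The count of striatal slopes was 9 with both levels in one fit (5.14% of all genes) and 0 with the replicate block (0.143%). With that block Sv2c had a slope of 0.30 (adjusted p = 0.152), Doc2b 0.37 (adjusted p = 0.184) and Unc13c 0.56 (adjusted p = 0.752). In the other alternatives each of the 3 passed. The block pairs libraries by number only: 5 of 15 libraries correlated best with a library of their own number. The causes of these differences were not tested.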
